A study of Mus musculus with 10 samples.

Results

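The ISG15 conjugation system and the related modifier gene Ubd were followed in 10 tumours of the mouse melanoma line B16F10. The genes were named by symbol: the modifiers Isg15 and Ubd, the enzymes Uba7, Ube2l6 and Herc6, the deconjugating protease Usp18, and Rnf213. Of these 7 symbols, 6 had a row among the 22329 genes of the table, and Rnf213 is not analysed here. The genes were chosen by function and with the difference in TPM between the treatment groups already known. The group differences of the 6 genes are therefore given as a description, without a test.

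All tumours were raised under the skin of C57BL6/J mice from injected B16F10 cells, received 1 intratumoral injection of 80 µg mRNA and were taken 7 days after it. In the 5 control tumours (libraries 1 to 5) the mRNA encoded luciferase. In the 5 cytokine tumours (libraries 6 to 10) 4 mRNAs were combined, 20 µg of each, for murine single-chain IL-12, IL-15sushi, GM-CSF and IFNalpha. Whole tumour tissue was sequenced, so the host cells of the tumour are in every value, and only 1 tumour line was used. Values are TPM, a transcript's share of the library corrected for its length. On that basis levels are set side by side between genes, although the annotation and counting behind the values are unknown.

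ISG15 is a ubiquitin-like protein made in response to interferons. It is attached to other proteins by a cascade that mirrors that of ubiquitin: the E1 enzyme UBA7 activates it, the E2 enzyme UBE2L6 carries it, and in the mouse the HERC6 ligase passes it to its targets. USP18 removes it again, and also binds the type I interferon receptor chain IFNAR2, together with STAT2, and dampens its signal. Ubd encodes FAT10, a second interferon-inducible modifier that sends its targets to the proteasome. FAT10 uses the E1 UBA6 and the E2 UBE2Z, and is known from dendritic cells, B cells and tissues exposed to interferon gamma and TNF.

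Sequence upstream of the start was looked up for the 6 of 7 symbols found in RefSeq's table (GRCm38.p6); Usp18 was not among them. The 2 modifier genes are shown because ISRE matches were found in the window of Isg15 and a kappaB match in that of Ubd, and a short stretch of Uba7 for its single match. In Isg15 the capitals mark matches to the interferon-stimulated response element (ISRE, searched as GAAA and GAAA with 2 bases of any kind between them). In Ubd they mark, in order, the shorter interferon regulatory factor core, AA and GAAA 2 bases apart, and a kappaB match, GGG and TTCC 3 bases apart. In Uba7 they mark the same core, which reads on the opposite strand. The Isg15 stretch is chr4:156200819-156200948, minus strand, and the Ubd stretch is chr17:37193762-37193891, plus strand. The Uba7 stretch is chr9:107975536-107975561, plus strand. The first 2 end at the base before the start, and all run 5′ to 3′ along the gene.
Isg15: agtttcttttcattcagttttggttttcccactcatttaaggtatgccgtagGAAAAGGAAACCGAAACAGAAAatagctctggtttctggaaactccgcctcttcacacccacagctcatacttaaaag
Ubd: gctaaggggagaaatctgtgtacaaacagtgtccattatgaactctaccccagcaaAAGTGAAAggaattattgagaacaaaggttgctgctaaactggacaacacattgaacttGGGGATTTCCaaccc
Uba7: ctagTTTCACTTttggtttcctgaaa

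Isg15 held 3 ISRE matches that overlap each other, from 78 to 57 bases before the start. Over the 250 bases before the start, with both strands read, 2.98% of 32851 RefSeq windows held at least 1 ISRE match and 4 windows held 3 or more. Ubd held no ISRE match; its kappaB match lay 15 to 6 bases before the start, and 4.65% of windows held that motif. The core as searched is part of every ISRE match, occurred in 21.3% of windows and was added after the sequences had been read. Isg15 held 4, of which only that at 128 to 121 bases before the start lay outside its ISRE matches. Uba7 and Ubd held 1 each. The gamma-activated site, TTC and GAA 3 bases apart, present in 7.02% of windows, was in none of the 6 windows. Rnf213 held 1 kappaB match, and Herc6 and Ube2l6 held none of the 4 motifs in this window. A match describes letters and no binding was measured.

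Some libraries stood apart, and this touches the values that follow. Between 11513 and 12984 genes reached a TPM of 1 per library. Mitochondrial genes took 16.2% to 27.9% of TPM in control and 4.44% to 19.2% in cytokine tumours. The 8 melanocyte lineage genes (Pmel, Mlana, Tyr, Tyrp1, Dct, Mitf, Sox10 and Slc45a2) summed to 41.9 TPM in library 7 and 2604 TPM in control library 1, against 4117 to 16831 TPM in the other 8. In library 7 Slc45a2 was listed at 0, Mitf was the highest of the 8 and the other 6 were at 4.79 TPM or less. The share of tumour cells was not measured. In library 7, 279 chemosensory receptor genes were above 0; the controls had 14 to 24 of them and the other cytokine tumours 22 to 43. Library 10 lay nearest the controls among the cytokine tumours in its T cell and macrophage sums, given further on. Control library 5 was the lowest of all tumours in both sums. It also had the fewest genes at a TPM of 1 (11513), the largest mitochondrial share (27.9%) and the lowest sum of the 6 described genes (85.5 TPM).

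All 6 genes had a higher mean in the cytokine tumours, and together they summed to 205 ± 86.7 TPM in control and 810 ± 241 TPM in cytokine tumours (SD, n = 5 per group). Ubd and Isg15 differed most, and Herc6 least. The 5 cytokine tumours all lay above the 5 control tumours in Isg15, Ube2l6, Usp18 and Ubd, that is in 4 of 6 genes, while 5.45% of the 12497 genes tested had that pattern. Since this comparison was known when the genes were chosen, this count carries no further weight. The median difference of the 6 genes was 2.08 on the log2(TPM + 1) scale, beside -0.18 over all genes tested. In bulk tissue, more cells that express a gene and more RNA of it per cell cannot be told apart.

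**Figure D1:**
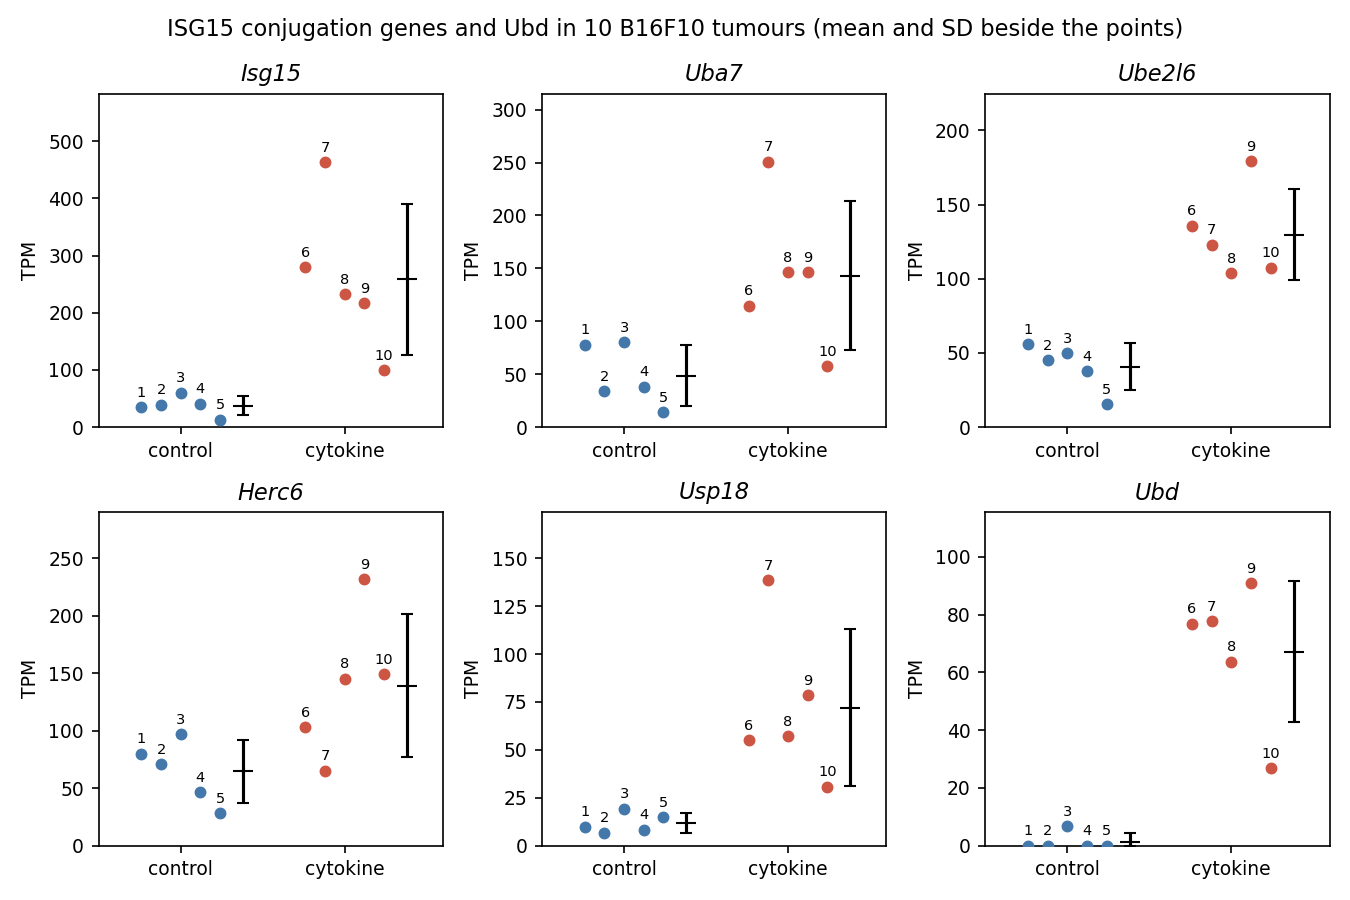
Level of each gene (TPM, linear axis) in the 5 control and 5 cytokine tumours; each point is 1 tumour, labelled by library, and the bar beside each group is its mean and SD, cut at 0 for Ubd. The groups are apart in Isg15, Ube2l6, Usp18 and Ubd and overlap in Uba7 and Herc6; library 7 is the highest in Isg15, Uba7 and Usp18 and the lowest cytokine tumour in Herc6.

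Isg15, the modifier itself, was at 34.6, 39.0, 60.6, 41.2 and 12.9 TPM in control libraries 1 to 5. It was at 279.7, 464, 232, 217 and 99.99 TPM in cytokine libraries 6 to 10. The groups did not overlap: the lowest cytokine tumour, library 10, lay 1.65 times above the highest control, library 3. The mean was 37.6 ± 17.1 TPM in control and 258 ± 132 TPM in cytokine tumours (207 TPM without library 7). The difference was 2.73 ± 0.45 (SE) on the log2(TPM + 1) scale.

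Ubd was listed at 0 in 4 of the 5 control tumours and at 6.81 TPM in library 3. In the cytokine tumours it was at 76.9, 77.7, 63.7, 90.9 and 26.9 TPM in libraries 6 to 10. Library 3, the only control with a value, was also the control with the most Isg15, Uba7, Herc6 and Usp18. The cytokine mean was 67.2 ± 24.5 TPM, and library 7 was not exceptional for this gene. No fold is given against a group listed mostly at 0. The difference on the log2 scale was 5.39 ± 0.59 (SE) with a pseudocount of 1, and it was 8.06 with 0.1 and 3.51 with 5.

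Uba7, the E1 enzyme of ISG15, was at 78.0, 33.8, 80.0, 38.2 and 14.0 TPM in control libraries 1 to 5. In cytokine libraries 6 to 10 it was at 115, 251, 146, 146 and 57.8 TPM. The groups overlapped through library 10, which lay below control libraries 1 and 3. The means were 48.8 ± 29.0 and 143 ± 70.2 TPM, and the cytokine mean was 116 TPM without library 7. Without library 10 all the remaining cytokine tumours lay above all controls. In GENCODE M21 another gene, Gm20661, overlaps Uba7 on the same strand. It was at 28.6 to 101 TPM in control and 0 to 57.5 TPM in cytokine tumours, with library 7 at 0, and reads of the shared part cannot be assigned from these values.

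Ube2l6, the E2 enzyme, was the steadiest of the 6 genes within the cytokine group. It was at 56.0, 45.1, 49.8, 37.6 and 15.4 TPM in control libraries 1 to 5. In cytokine libraries 6 to 10 it was at 136, 123, 104, 179 and 108 TPM. Every cytokine tumour, library 10 included, lay above every control, and the lowest was 1.85 times the highest control. The means were 40.8 ± 15.7 and 130 ± 30.4 TPM, with a coefficient of variation of 23.4% in the cytokine group against 36.5% to 56.7% in the other 5 genes.

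Herc6, the ligase, was the most abundant of the 6 in every control tumour, at 80.1, 70.9, 97.0, 46.6 and 28.4 TPM in libraries 1 to 5. In cytokine libraries 6 to 10 it was at 103, 65.3, 145, 232 and 149 TPM. The groups overlapped through library 7, the library with the most Isg15, which lay below 3 controls. Without library 7 the cytokine mean was 157 TPM and the groups were apart. The difference was 1.09 ± 0.39 (SE) on the log2 scale, the smallest of the 6.

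Usp18, which removes ISG15, was at 9.85, 6.80, 19.3, 8.30 and 14.9 TPM in control libraries 1 to 5. In cytokine libraries 6 to 10 it was at 55.1, 139, 57.3, 78.5 and 30.7 TPM. The groups did not overlap, and the lowest cytokine tumour was 1.59 times the highest control. The means were 11.8 ± 5.17 and 72.0 ± 40.9 TPM (55.4 TPM without library 7), a log2 difference of 2.43 ± 0.40 (SE).

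The order of levels differed between the groups. In control tumours it ran from Herc6 through Uba7, Ube2l6 and Isg15 to Usp18 and Ubd, with Herc6 above Uba7 in 5 of 5 tumours. Uba7, Ube2l6 and Isg15 were not separated there: Uba7 exceeded Ube2l6 in 3 of 5 tumours, and Ube2l6 exceeded Isg15 by 3.15 ± 12.1 TPM within a tumour (SD, n = 5). In cytokine tumours Isg15 had the highest mean and lay above Uba7 in 5 of 5, by 115 ± 71.0 TPM. Uba7, Herc6 and Ube2l6 were again not separated there, and Usp18 exceeded Ubd in only 2 of 5. Isg15 was the top gene in libraries 6, 7 and 8, whereas Herc6 was still the top gene in libraries 9 and 10, as in every control.

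**Figure D2:**
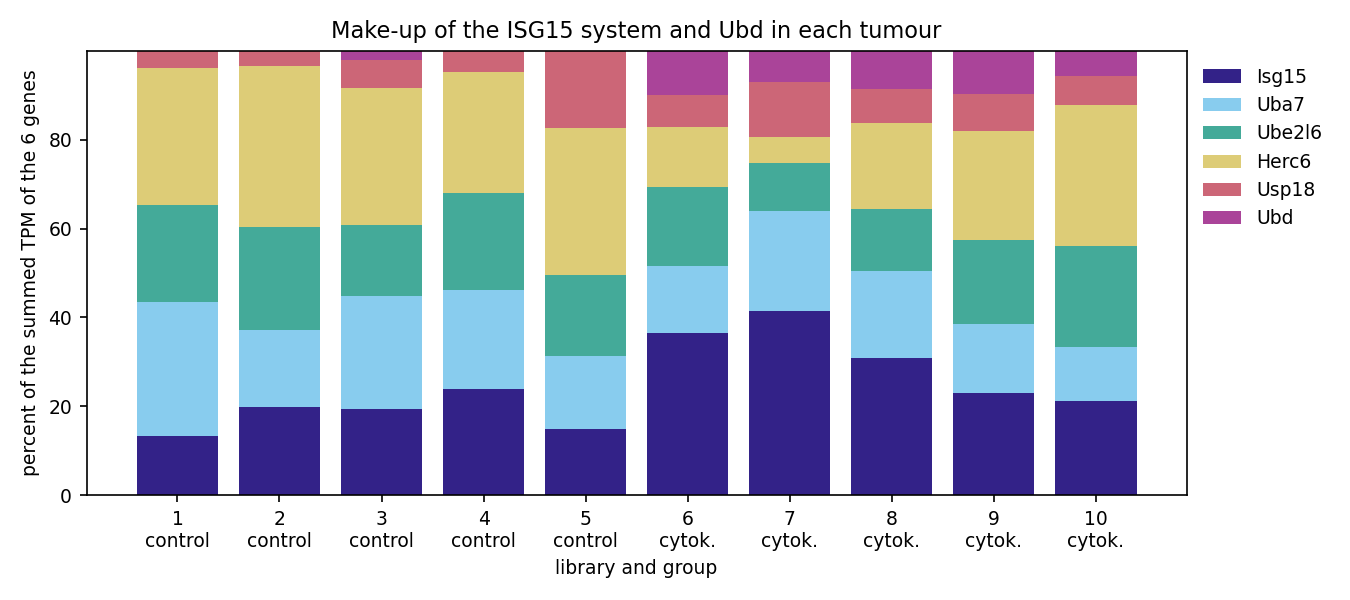
Share of each gene in the summed TPM of the 6 genes (percent, stacked to 100), 1 bar per tumour. Herc6 took 27.1% to 36.2% of the sum in control tumours and 5.84% (library 7) to 31.6% (library 10) in cytokine tumours, where Isg15 reached 41.4% in library 7.

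The enzymes were also set against the modifier within each tumour. For each Isg15 transcript there were 0.866 to 2.25 of Uba7 in control tumours and 0.409 to 0.673 in cytokine tumours, without overlap. The ratio of Ube2l6 to Isg15 was 0.822 to 1.62 in control and 0.265 to 1.08 in cytokine tumours, with overlap through libraries 9 and 10. The ratio of Herc6 to Isg15 was 1.13 to 2.31 in control and 0.141 to 1.49 in cytokine tumours, and the groups overlapped through library 10. The ratio of Usp18 to Isg15 was 0.174 to 0.318 in control libraries 1 to 4, 1.16 in library 5, and 0.197 to 0.362 in cytokine tumours. Library 5, which stands apart in this ratio, is the tumour with the least Isg15. Like the levels, these ratios describe the comparison from which the genes were chosen and were not tested.

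The enzymes were also set beside relatives. Ube2l3, the ubiquitin E2 closest to Ube2l6, had control and cytokine means of 64.0 ± 7.50 and 49.3 ± 10.8 TPM (limma adjusted p = 0.217). The ratio of Ube2l6 to Ube2l3 was 0.273 to 0.793 in control and 1.84 to 3.94 in cytokine tumours, so the interferon-inducible E2 was the rarer of the pair in each control and the more abundant in each cytokine tumour. Uba1, the main E1 of ubiquitin, had means of 537 ± 25.2 and 325 ± 144 TPM (limma adjusted p = 0.0807, and 0.0134 without library 10). Uba7 had 0.0259 to 0.150 transcripts per Uba1 transcript in control and 0.110 to 1.34 in cytokine tumours, with overlap through library 10. Usp16, a deubiquitinase also reported to act on ISG15, had means of 165 ± 35.4 and 212 ± 77.2 TPM (limma adjusted p = 0.418). Usp18 was at most 0.109 of it in control tumours and at least 0.164 in cytokine tumours. For the ligase the groups overlapped: the ratio of Herc6 to Herc3 was 0.639 to 3.58 in control and 0.559 to 3.72 in cytokine tumours, and that of Herc6 to Herc4 was 1.31 to 3.91 and 1.18 to 5.91.

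**Figure D3:**
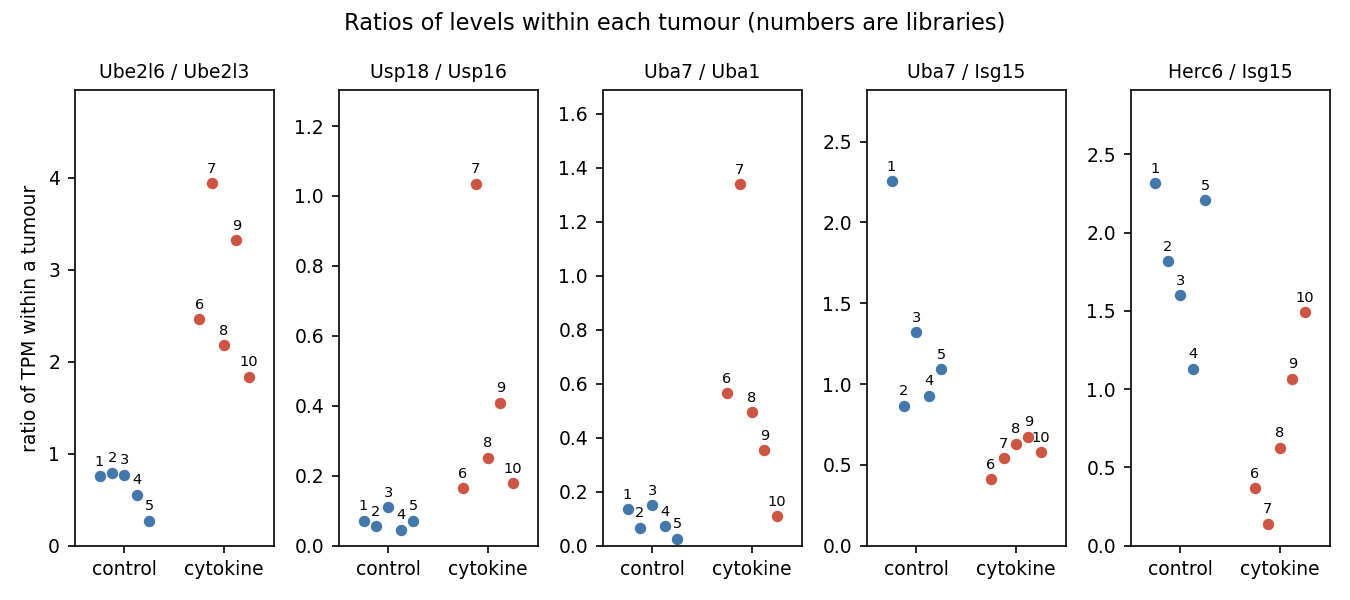
Ratio of 2 TPM values within each tumour (linear axes), 1 point per tumour labelled by library. The control and cytokine tumours are apart for Ube2l6 / Ube2l3, Usp18 / Usp16 and Uba7 / Isg15, and overlap for Uba7 / Uba1 and Herc6 / Isg15.

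The other genes of ISG15 biology were taken from a list of function. Of 14 tested, 2 rose and none fell (limma adjusted p under 0.05), beside 7.41% of all genes tested that rose and 3.02% that fell. Trim25, a ligase that is itself modified by ISG15, was at 31.2, 22.4, 25.5, 26.6 and 15.5 TPM in control and 58.4, 64.0, 60.5, 47.7 and 34.5 TPM in cytokine tumours. It rose by 1.10 ± 0.25 (SE) on the log2 scale without overlap (limma adjusted p = 0.0212). The call was lost without control libraries 2 or 5 or cytokine libraries 6 or 8, with adjusted p-values of 0.0515 to 0.0591 from limma. Itgal, the alpha chain of the integrin LFA-1 that binds secreted ISG15 and is carried by leukocytes, rose from 2.13 ± 1.36 to 57.7 ± 52.7 TPM (limma adjusted p = 0.0145; mean of 36.4 TPM without library 7). Arih1, another ligase partner, had means of 56.5 ± 14.7 and 75.6 ± 13.3 TPM (limma adjusted p = 0.219).

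The E1 and E2 that FAT10 uses were not called. Of 8 genes of FAT10 biology tested none rose and 1 fell, beside 7.41% and 3.02% of all genes tested. Uba6, its E1, had means of 21.6 ± 2.25 and 29.0 ± 6.62 TPM (limma adjusted p = 0.223), and Ube2z, its E2, at 47.5 ± 3.10 and 36.1 ± 12.6 TPM (limma adjusted p = 0.243). Nub1, which escorts FAT10 to the proteasome, had means of 49.9 ± 11.3 and 57.6 ± 14.0 TPM (limma adjusted p = 0.575). The gene that fell was Mad2l1, a spindle checkpoint protein that FAT10 binds, from 90.5 ± 10.2 to 37.2 ± 27.1 TPM (limma adjusted p = 0.026). Library 10 was at 84.7 TPM, within the control range, and the cytokine mean was 25.3 TPM without it. The call was lost in 8 of 10 fits with 1 library left out, all but those without libraries 7 or 10.

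Wider families of the ubiquitin system mostly stayed below the threshold, which 7.41% of all genes tested passed as higher and 3.02% as lower. Of 17 other modifier genes none rose and 2 fell: Rps27a, a ubiquitin and ribosomal fusion gene, by 1.70 on the log2 scale (limma adjusted p = 0.0321), and Fau, whose ubiquitin-like part is fused to another ribosomal protein (limma adjusted p = 0.044). Both have near-identical processed copies in the genome, so their values are uncertain. The Fau call was lost with any 1 library but library 10 left out, and that of Rps27a in 7 of 10 such fits. Of 32 E2 genes none rose and 2 fell, Ube2c, an enzyme of mitotic exit, and Ube2e3, whose call was lost in 9 of 10 such fits. Ube2c was at 126 TPM in library 10 and at 19.8 to 32.2 TPM in the other cytokine tumours. None of 9 E1 genes and none of 4 HERC genes passed limma's threshold. Herc3, a small HERC ligase, had means of 42.2 ± 16.3 and 88.8 ± 37.5 TPM (limma adjusted p = 0.0821, and 0.0135 without library 10). Of 39 deubiquitinases of the USP family 2 rose (5.13%, below the share of all genes) and none fell. Usp25 rose from 23.9 ± 3.50 to 46.5 ± 7.10 TPM without overlap (limma adjusted p = 0.0171), and Usp3 from 34.8 ± 13.8 to 89.2 ± 42.7 TPM (limma adjusted p = 0.0423), a call lost in 7 of 10 such fits.

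**Figure D4:**
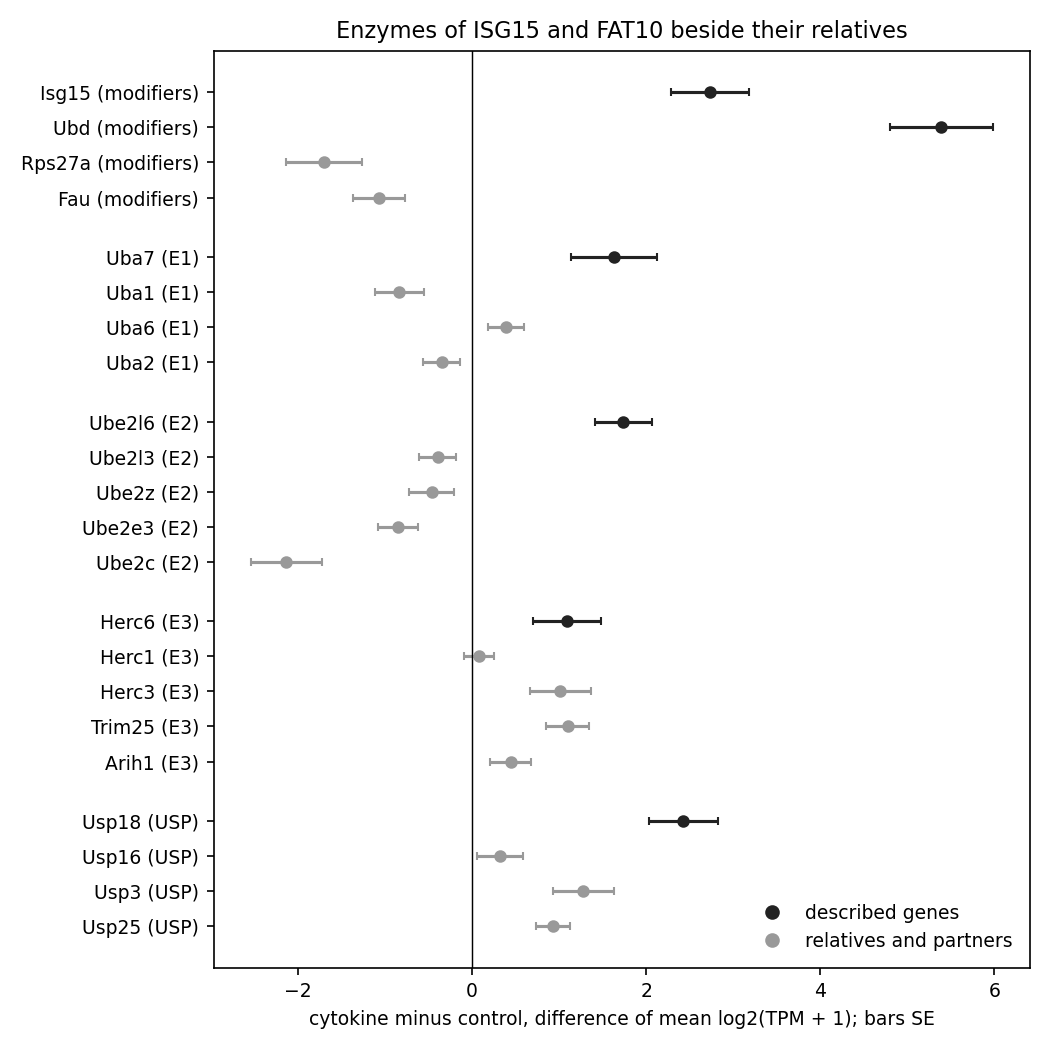
Difference between group means of log2(TPM + 1), cytokine minus control, with SE bars, for the described genes (black) and for relatives and partners (grey), which include the genes of each family with the largest called change. Isg15, Ubd, Uba7, Ube2l6, Herc6 and Usp18 lie to the right of 0. Of the relatives and partners, Uba6, Herc1, Herc3, Trim25, Arih1, Usp16, Usp3 and Usp25 also lie to the right. Uba1, Uba2, Ube2l3, Ube2z, Ube2e3, Ube2c, Rps27a and Fau lie to the left.

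Counted once each, 111 genes of these 7 lists were tested, of which 4 rose and 5 fell, that is 3.60% and 4.50%, beside 7.41% and 3.02% of all genes tested. The median difference was -0.24, close to the -0.18 of all genes. This count rested on single libraries: it was 26 (7 higher and 19 lower) without library 10, between 3 and 6 without any other single library and 0 without libraries 6 and 7 together, where 20 of all genes were called. It was 15 (3 higher and 12 lower) after rescaling without mitochondrial genes.

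Of 11 interferon signalling genes tested, which act upstream of these genes, 5 rose and none fell, beside 7.41% and 3.02% of all genes tested. The 6 that did not pass limma's threshold included Ifnar1, the other chain of the type I receptor (-0.05 on the log2 scale), and Ifngr2 (-0.24). Stat2, a subunit of the factor that binds ISREs and a partner of USP18, rose from 38.5 ± 16.8 to 206 ± 71.3 TPM, with every cytokine tumour above every control (limma adjusted p = 0.00961). Irf1 rose by 2.32 and Irf7 by 2.26 on the log2 scale (limma adjusted p = 0.016 and 0.012). The other 2 were the receptor chains Ifnar2 and Ifngr1, named after their values were seen; Ifnar2, to which USP18 binds, rose from 84.4 ± 20.2 to 261 ± 161 TPM (limma adjusted p = 0.0454). With 1 library left out the call of Ifnar2 was lost in 9 of 10 fits and that of Ifngr1 in 8. Irf9, the DNA-binding subunit of the factor that holds STAT2, had means of 25.5 ± 10.6 and 35.2 ± 8.47 TPM (limma adjusted p = 0.274). Without libraries 6 and 7 together the limma calls of Stat2, Irf1 and Irf7 were lost, at adjusted p-values of 0.0628 to 0.0922.

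Among 20 interferon genes, 15 were listed at 0 in every library. Ifng, the type II interferon, was at 0 to 2.79 TPM in control and at 57.6, 114, 36.6, 23.7 and 8.81 TPM in cytokine libraries 6 to 10 (limma adjusted p = 0.0107, and 0.0628 without libraries 6 and 7). Ifnb1 was above 0 in 1 library, at 0.948 TPM in library 8, and no other interferon gene exceeded 3.08 TPM. As listed, type I interferon genes were near the bottom of the table at day 7, the only time sampled. Ifna2 and Ifna4 were above 0 only in library 7, at 3.08 and 1.16 TPM. That library had the most Isg15 and Usp18, and also 279 chemosensory receptor genes above 0. The source of the Isg15 and Usp18 levels was not tested. How reads that match more than 1 of these genes were counted is not known. Whether the injected IFNalpha mRNA would be counted in these rows is not known either.

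Markers of several immune cell types were also higher in the cytokine tumours. Over all genes tested, 7.41% rose and 3.02% fell. Of 8 T cell markers 6 were tested and 5 rose, and their summed level was 3.83 to 50.4 TPM in control and 60.5 to 3705 TPM in cytokine tumours. Of 8 macrophage and monocyte markers 7 rose, with sums of 108 to 329 and 506 to 12843 TPM. In both lists library 7 was the highest and library 10 the lowest cytokine tumour, as for Isg15, Uba7 and Usp18. Ube2l6, Ubd and Herc6 were each highest in library 9 instead. Of the cytokine tumours, Ubd was also lowest in library 10, Ube2l6 was lowest in library 8 and Herc6 in library 7. Values of r were taken after each group's mean was subtracted (10 tumours that share library composition). With the T cell marker Cd3e, r was -0.29 for Herc6, 0.34 for Ube2l6 and 0.32 for Ubd. It was 0.84 for Isg15, 0.74 for Uba7 and 0.51 for Usp18. With the macrophage marker Csf1r, r was 0.10 for Herc6, 0.44 for Ubd, 0.45 for Usp18 and 0.63 for Ube2l6. It was 0.91 for Uba7 and 0.94 for Isg15. With Adgre1, from the same list, r was 0.22 for Herc6, 0.29 for Usp18, 0.425 for Ubd and 0.71 for Ube2l6. It was 0.87 for Uba7 and 0.90 for Isg15. Ube2l6 thus lay above Usp18 with both macrophage markers and below it with Cd3e. Of 8 dendritic cell markers 7 were tested and 2 rose, with sums of 24.6 to 44.7 and 31.1 to 160 TPM. Of 3 NK cell markers tested all 3 rose (sums of 0.147 to 6.46 and 8.36 to 1386 TPM), as did both neutrophil markers tested (0.771 to 8.70 and 6.57 to 176 TPM). Klra8, S100a9, Ly6g and Mpo were listed at 0 in all control tumours. B cell markers, of which 2 were tested and none called, summed to 6.61 to 38.8 and 14.1 to 121 TPM. None of 5 endothelial and none of 5 fibroblast markers was called, with fibroblast sums of 50.2 to 661 and 149.8 to 843 TPM. Keratinocyte genes did not exceed a sum of 14.4 TPM. The part of cell content in the values of the 6 genes was not tested.

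Within the groups the 6 genes did not vary as 1 block. After each group's mean was subtracted, Isg15 and Uba7 had a Pearson r of 0.875 over the 10 tumours, the highest of 15 pairs, and the median of all pairs was 0.51. Herc6 tracked Ube2l6 (r = 0.722) but not Isg15 (r = 0.124) or Usp18 (r = -0.263). Ubd lay nearest to Usp18 among the 6 (r = 0.676). Many genes outside the list had a higher r. Of 12496 other genes, Uba7 ranked 329 by r with Isg15, Ube2l6 ranked 636 with Herc6 and Usp18 ranked 177 with Ubd. These values are descriptions over few tumours that share library composition, and 4 control values of Ubd are at 0.

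By the same measure, the genes most like Isg15 outside the list were Oas2, an antiviral synthetase gene (r = 0.992), H2-Q6, a class I gene, Slfn1, Ugt1a7c and Sfrp4 (r = 0.972 to 0.985). For Ubd they were Zfp407, Spns2, Zfp709, Ccdc167 and Tor3a (r = 0.891 to 0.961). The values of r for Ubd rest largely on library 3, the only control with Ubd above 0 (6.81 TPM). Oas2 went from 13.9 ± 6.96 to 55.4 ± 25.6 TPM. Of the genes most like Isg15, Oas2, H2-Q6 and Slfn1 also rose between the groups, beside 7.41% of all genes tested. None of those most like Ubd was called. Since their r rests largely on library 3, no contrast with Isg15 is drawn. Without subtraction of the group means, r also holds the group difference. The genes most like Ubd were then Nos2, Gstp3, Sp100, Slamf8 and Phf11d (r = 0.966 to 0.970). For Isg15 they were Sdc3, Oasl2, H2-Q6, Oas2 and Xdh (r = 0.991 to 0.992).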

How the data were processed

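The deposited table, made by the authors, holds TPM for 22329 gene symbols in 10 columns, 1 for each tumour, and every column sums to the same total. The labels' protocols record a DNase step, polyA RNA and stranded libraries. STAR and the build GRCh38 are named in the submitters' processing notes; that build is human, while the symbols are mouse. The build behind the values is thus unsettled, and printed coordinates belong to RefSeq's sequences (GRCm38.p6). For the annotation and the counting, the sources used here say nothing. Since TPM holds no depth, no counting interval is given, and a gene listed at 0 may lie below detection.

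Groups came from the titles. The filter was a TPM of 1 or more in 5 or more libraries. It left 12497 genes, all 6 described genes included; Ubd passed through the cytokine tumours and 1 control. They were tested on log2(TPM + 1) with limma (3.58.1, under R 4.3.3; eBayes with trend, 2-sided), with p-values adjusted by Benjamini-Hochberg over the whole table and a threshold of 0.05. Log2 differences understate changes of low genes. The step was tested on simulated data. The genes and lists were chosen with earlier results of these data known. The text names the described genes, fixed partners (1 of them is not reported here and was taken out of its list), per list up to 3 called genes of largest change (where none was called, the 2 of highest mean), and the 5 genes most like Isg15 and Ubd. Alternatives were other pseudocounts, filters, scalings, variance settings, library weights and left-out libraries, the last with the tested genes kept.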

Additional observations from a re-analysis of the deposited data

Results flagged for a closer look

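Of 65 groups of 5 tumours checked, 6 held a tumour far from the other 4 on the log2(TPM + 1) scale, and chance gives about 1 in 20 where values are continuous. That rate does not apply to Ubd and Ifnb1, where the other 4 tumours are all at 0. Ubd was at 6.81 TPM in control library 3 and listed at 0 in the other controls. In control library 1, Nub1 was at 69.9 TPM, against 42.6 to 47.3 TPM in the other controls, and Fau was at 47.1 TPM, against 23.2 to 26.6 TPM. In cytokine library 10, Uba2 was at 142 TPM, against 75.2 to 89.2 TPM, and Ube2c was at 126 TPM, against 19.8 to 32.2 TPM. Ifnb1 was at 0.948 TPM in cytokine library 8 and listed at 0 in the other cytokine tumours.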

How the results depend on the processing

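The median log2 difference of the 6 genes lay between 1.86 and 2.30 in the 17 other settings, with no change of sign in any of the 6; only the value of Ubd moved by more than the pooled SD of tumours within groups, with the pseudocount. Herc6 moved from 1.09 to 1.51 without libraries 6 and 7, and Ubd from 5.39 to 5.98 without control library 3, both by more than the SE. Of the fits with 1 library left out, that without control library 5 gave the smallest difference for Isg15 (2.40), Uba7 (1.26), Ube2l6 (1.43) and Herc6 (0.83). In that fit Ubd was at 5.24, and Usp18 was larger than in the main fit, at 2.53. As an alternative chosen after seeing the data, the number of the 6 genes without overlap of the groups (4) was recounted with libraries left out: it was 5 without library 7, without library 10 and without 6 and 7 together, and 4 without any other single library. Counts of called genes were less stable. For all genes (1304) the count was 846 with no filter, 2769 with library quality weights and 20 without libraries 6 and 7, and with 1 library left out it ranged from 367 to 3238. For the 111 ubiquitin system genes (9) it was 5 with no filter, 15 after rescaling without mitochondrial genes, 23 with library quality weights and 0 without libraries 6 and 7, and with 1 library left out it ranged from 3 to 26. Of all called genes 71.0% were higher; the share was 60.7% with the top 50 genes removed before rescaling and 48.6% with mitochondrial genes removed, where the median of all genes was -0.36, against -0.18 as deposited and -0.03 after median-ratio scaling. Changes of sign were seen in Nub1 (-0.0093 after rescaling without mitochondrial genes) and Herc1 (-0.0213 with the top 50 genes removed and -0.126 with mitochondrial genes removed), neither called. No paired analysis was possible because the groups share no replicate number. Depth is unknown, so values at 0 cannot be bounded.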
